A study of Rattus norvegicus with 15 samples.

Results

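The genes described here are the zinc finger genes of the rat H9c2 line whose symbol is Zfp followed by a number. The deposited table holds 240 such entries (239 symbols, since Zfp9 stands on 2 of them). A gene was kept where its FPKM, fragments scaled to transcript length and library size, was at least 1 in 3 or more of the 15 libraries. This left 189 members (188 symbols) among 11288 genes tested, and 51 entries fell below the minimum. No member passed through 1 group alone. Zfp458 reached the minimum in 1 library and Zfp420 in 2, so both were left out, while Zfp78 reached it in 3 libraries and was kept.

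Zinc finger proteins hold small folds that a zinc ion stabilises. In the largest family, C2H2, arrays of these fingers bind DNA, and many members carry a KRAB domain that recruits the corepressor Trim28 with histone methyltransferases and heterochromatin proteins. The Zfp symbol is a naming convention and not a function. Zfp36, Zfp36l1 and Zfp36l2 have CCCH fingers and bind AU-rich elements of mRNAs, which are then degraded, and Zfp598 is a ubiquitin ligase that acts on collided ribosomes. The label transcription factor therefore does not cover every member.

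H9c2 cells derive from embryonic rat heart and were left in phosphate-buffered saline (con), given 2 µM doxorubicin for 24 h (DOX), or given an addition 4 h before that same doxorubicin treatment. Doxorubicin is an anthracycline that traps topoisomerase II on DNA. The additions were 50 µL of danshen injection diluted 1 in 20 (DSI+DOX), 5 µM astaxanthin, a carotenoid (AXT+DOX), and 10 µM diosmetin, a flavone (DMT+DOX). Each group had 3 libraries, all from this 1 cell line, and no group received an addition without doxorubicin. The labels do not say whether the libraries of a group came from separate cultures, so p-values measure the spread between these libraries, which may be technical.

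The labels call the cells cardiomyocytes. Of 7 defining cardiomyocyte markers in the table, none reached the minimum for testing, and their FPKM summed to between 1.52 and 1.90 in con and between 0.301 and 0.813 in the groups with doxorubicin. The 6 skeletal myoblast markers summed to between 134.7 and 145.1 in con and between 25.3 and 50.7 with doxorubicin. Myog made up most of that difference, at 90.5 to 98.4 FPKM in con and 2.22 to 2.61 in DOX, and Acta1 was at 18.1 to 21.5 and 1.67 to 2.25. Myod1 was at 17.4 to 18.7 FPKM in con, 18.8 to 20.7 in DOX and 29.1 to 31.1 in DMT+DOX. Des overlapped between con and DOX, and Chrna1 was higher in DOX (1.27 to 1.63) than in con (0.208 to 0.376). The fibroblast markers, which are nearly all Col1a1 and Col1a2 here, summed to between 4292 and 4470 in con and between 2057 and 2940 with doxorubicin, while Pdgfra, Dcn and Lum were under 1 FPKM in every library. The part of these markers in the Zfp results was not tested. Lower FPKM in a library of bulk RNA cannot tell fewer cells of a type from less RNA per cell. Total FPKM lay between 433383 and 468608 in 14 libraries and was 548227 in DSI+DOX replicate 3. That library correlated with the other two DSI+DOX libraries at 0.953 and 0.963 across genes, against at least 0.991 within the other groups. Since all 15 libraries share 1 estimate of the spread, the counts of called members, and the named results for which it changes the call, are also given without it.

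The members were mostly expressed at low to moderate levels. Their mean FPKM over the 15 libraries had a median of 4.31 and ran from 0.764 to 46.1, with 34 members at 10 or more, 115 between 2 and 10, and 40 under 2. Of the 189, 150 reached 1 FPKM in every library and a further 17 in every library except DSI+DOX replicate 3. The highest mean belonged to Zfp207, whose protein BuGZ binds spindle microtubules and the checkpoint protein Bub3. Zfp91, which encodes a ubiquitin ligase, Zfp771, Zfp513 and Zfp422 followed. Zfp771 had 34.9, 35.9 and 33.3 FPKM in con and 38.2, 34.0 and 36.9 in DOX, and Zfp422, needed for muscle development in mouse, had 25.1, 25.7 and 24.6 in con and 29.9, 27.2 and 24.7 in DOX. Both pairs of groups overlapped and neither gene was called.

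DSI+DOX replicate 3 held less of the Zfp mRNAs than any other library. The members' median was 2.77 FPKM there against 3.92 to 4.89 in the other 14, and their sum was 985 FPKM against 1159 to 1367. On the log2(FPKM + 1) scale, 147 of 189 members were lower in replicate 3 than the mean of DSI+DOX replicates 1 and 2. The difference was over 1 for 18 of them, and none was higher by over 1. The pseudocount shrinks differences at low FPKM, so some members over 2-fold lower in FPKM are not among the 18. Of all 11288 genes tested, 882 were lower by over 1 in replicate 3 and 98 were higher by over 1. Falls of that size were therefore not particular to the members. How many of all genes were lower by any amount is not given here. The median difference was -0.36 on the log2(FPKM + 1) scale for the members and -0.13 for all genes tested.

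**Figure D1:**
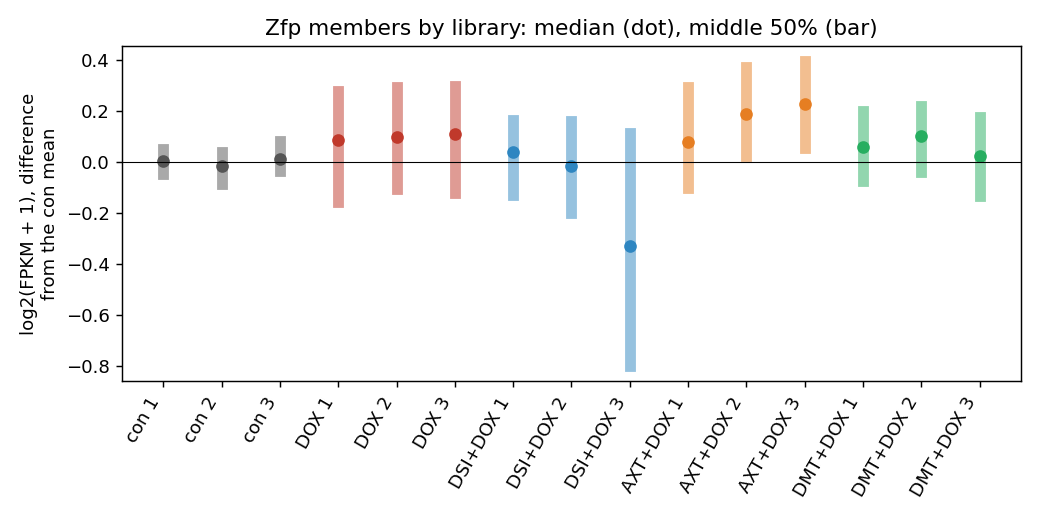
Difference of the 189 Zfp members from their con mean in each library, on the log2(FPKM + 1) scale, with the median as a dot and the middle 50% as a bar; con, DOX, DSI+DOX, AXT+DOX and DMT+DOX are coloured grey, red, blue, orange and green. The DOX medians lie between 0.088 and 0.110, the AXT+DOX medians between 0.081 and 0.230, and DSI+DOX replicate 3 lies lowest at -0.33.

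Doxorubicin alone was compared with con to see which members respond to the drug. A gene was called where its limma test on log2(FPKM + 1) gave a Benjamini-Hochberg adjusted p under 0.05 over all 11288 genes. Of the members, 48 rose and 7 fell. That is 25.4% of members against 24.8% of all genes tested for rises, and 3.70% against 14.1% for falls, so the share of rises was near the background. The median log2 fold change was 0.08 for members and 0.05 for all genes tested. With DSI+DOX replicate 3 left out, 59 members rose and 18 fell, where 33.2% of all genes rose and 23.8% fell. With median scaling 35 members rose and 14 fell, and with quantile normalization 39 rose and 14 fell. These settings moved all genes, whose median log2 fold change became -0.015 and -0.007, with 0.019 and 0.044 for the members. The shares of all genes called under them are not given here. Leaving out con replicate 3 or DOX replicate 2 brought the calls from 55 to 36.

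The largest rises were in Zfp219 and Zfp580. Zfp219 encodes a C2H2 protein that partners Sox9 in mouse cartilage cells. It had 7.33, 8.11 and 6.63 FPKM in con replicates 1 to 3 and 17.0, 16.7 and 17.5 in DOX (log2 fold change 1.12 ± 0.07 (SE), limma adjusted p = 7.64e-08). Every DOX library held about as much as the others of its group and stood above every con library. Zfp580 had 4.40, 5.38 and 5.42 FPKM in con and 13.0, 10.9 and 12.1 in DOX (log2 fold change 1.10 ± 0.12 (SE), limma adjusted p = 1.06e-05). Its groups were again apart, with a wider spread in DOX. These were the only 2 called members whose rise reached 1 on the log2(FPKM + 1) scale. That scale understates changes at low FPKM, as for Zfp202 and Zfp612 below.

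Zfp703 and Zfp346 were also among the 6 largest rises. Zfp703, a repressor of the NET family known from human breast cancer, had 5.34, 5.86 and 4.71 FPKM in con and 9.27, 9.41 and 10.0 in DOX (log2 fold change 0.75 ± 0.09 (SE), limma adjusted p = 2.33e-05). Zfp346, or JAZ, encodes a protein that binds double-stranded RNA and p53. It had 4.00, 4.28 and 4.19 FPKM in con and 7.15, 7.89 and 7.69 in DOX (log2 fold change 0.73 ± 0.09 (SE), limma adjusted p = 1.39e-05). In both genes the DOX libraries lay close together and above every con library.

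Zfp202 and Zfp612 were the others. Zfp202, whose human counterpart represses genes of lipid transport, had 1.03, 0.757 and 1.02 FPKM in con and 2.25, 2.43 and 1.90 in DOX (log2 fold change 0.72 ± 0.10 (SE), limma adjusted p = 8.92e-05). Zfp612 had 1.99, 1.90 and 2.24 FPKM in con and 3.88, 4.42 and 4.22 in DOX (log2 fold change 0.77 ± 0.24 (SE), limma adjusted p = 0.0228), about a doubling with no overlap. The Zfp612 call was lost without con replicate 1 (adjusted p = 0.0605) or 2 (0.0651), or without DOX replicate 2 (0.0663) or 3 (0.0576). It was called without DSI+DOX replicate 3 (adjusted p = 0.000100), where Zfp612 was at 0.791 FPKM against 3.25 and 2.57 in the other DSI+DOX libraries. Zfp513, among the most abundant members, rose from 23.9 ± 1.22 to 38.4 ± 2.41 FPKM (mean ± SD of 3 libraries; log2 fold change 0.66 ± 0.07 (SE), limma adjusted p = 3e-06).

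**Figure D2:**
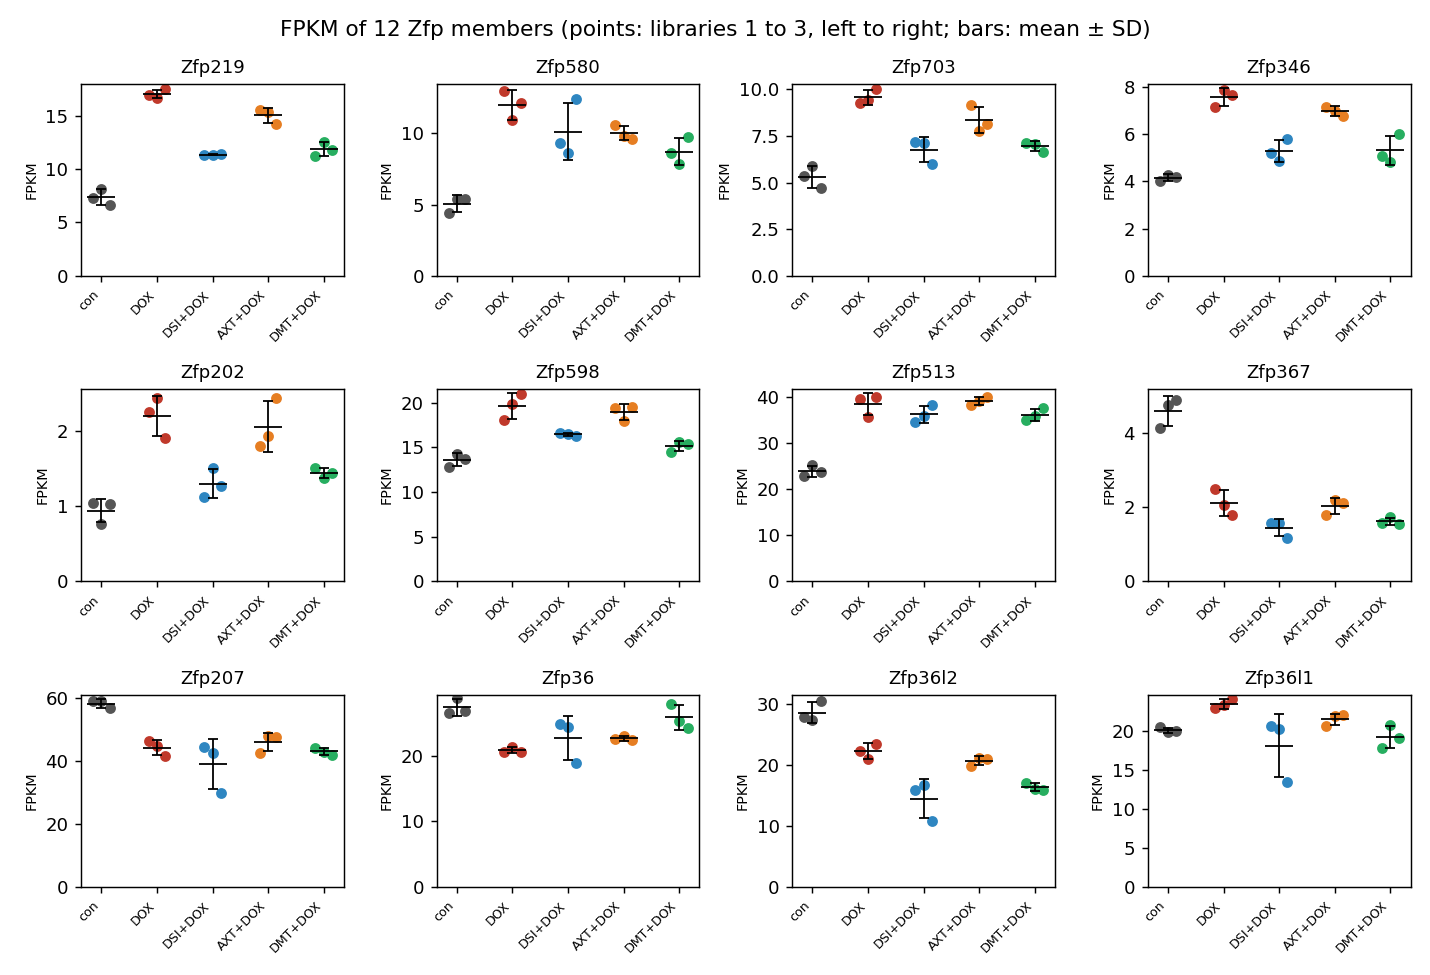
FPKM of 12 Zfp members in each library (points) with the mean ± SD of each group (bars), all axes starting at 0. Zfp219 rises from 6.63 to 8.11 FPKM in con to between 16.7 and 17.5 in DOX and lies between 11.2 and 12.6 in DSI+DOX and DMT+DOX, while Zfp36l2 is lower in each group with doxorubicin than in con.

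The 7 falls were led by Zfp367, a C2H2 gene. It had 4.14, 4.76 and 4.89 FPKM in con and 2.48, 2.06 and 1.78 in DOX (log2 fold change -0.85 ± 0.10 (SE), limma adjusted p = 2.12e-05). It was below every con library in all 12 libraries with doxorubicin, as low as 1.18 FPKM in DSI+DOX replicate 3. Zfp207, the spindle gene and most abundant member, had 59.0, 59.1 and 56.8 FPKM in con and 46.3, 44.8 and 41.8 in DOX (log2 fold change -0.39 ± 0.11 (SE), limma adjusted p = 0.0153), which was not called once DOX replicate 3 was left out (adjusted p = 0.0575).

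Zfp36, which encodes tristetraprolin, had 26.6, 28.9 and 26.9 FPKM in con and 20.7, 21.4 and 20.6 in DOX (log2 fold change -0.37 ± 0.09 (SE), limma adjusted p = 0.00515). Zfp36l2, its relative, had 27.8, 27.2 and 30.5 FPKM in con and 22.3, 20.9 and 23.4 in DOX (log2 fold change -0.35 ± 0.12 (SE), limma adjusted p = 0.0350). Both fell with no overlap. The Zfp36l2 call was lost without any con library or DOX replicate 1 or 2 (adjusted p from 0.0546 to 0.122). The other falls were Zfp182 (-0.54, adjusted p = 0.0138), Zfp608 (-0.49, 0.0214) and 1 of the 2 Zfp9 entries (-0.53, 0.0481). The Zfp182 call was lost without con replicate 1 (0.0563) or DOX replicate 2 (0.0619). The Zfp608 call was lost without con replicate 1 (0.0733) or 3 (0.0541) or DOX replicate 1 (0.0721). The Zfp9 call was lost without any 1 of the 12 libraries outside the DSI+DOX group (adjusted p from 0.0604 to 0.151).

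The remaining rises lay between 0.21 (Zfp444) and 0.67 (Zfp316) on the log2(FPKM + 1) scale. Most were below 0.5 on that scale, which understates the fold change in FPKM of low genes.

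**Figure D3:**
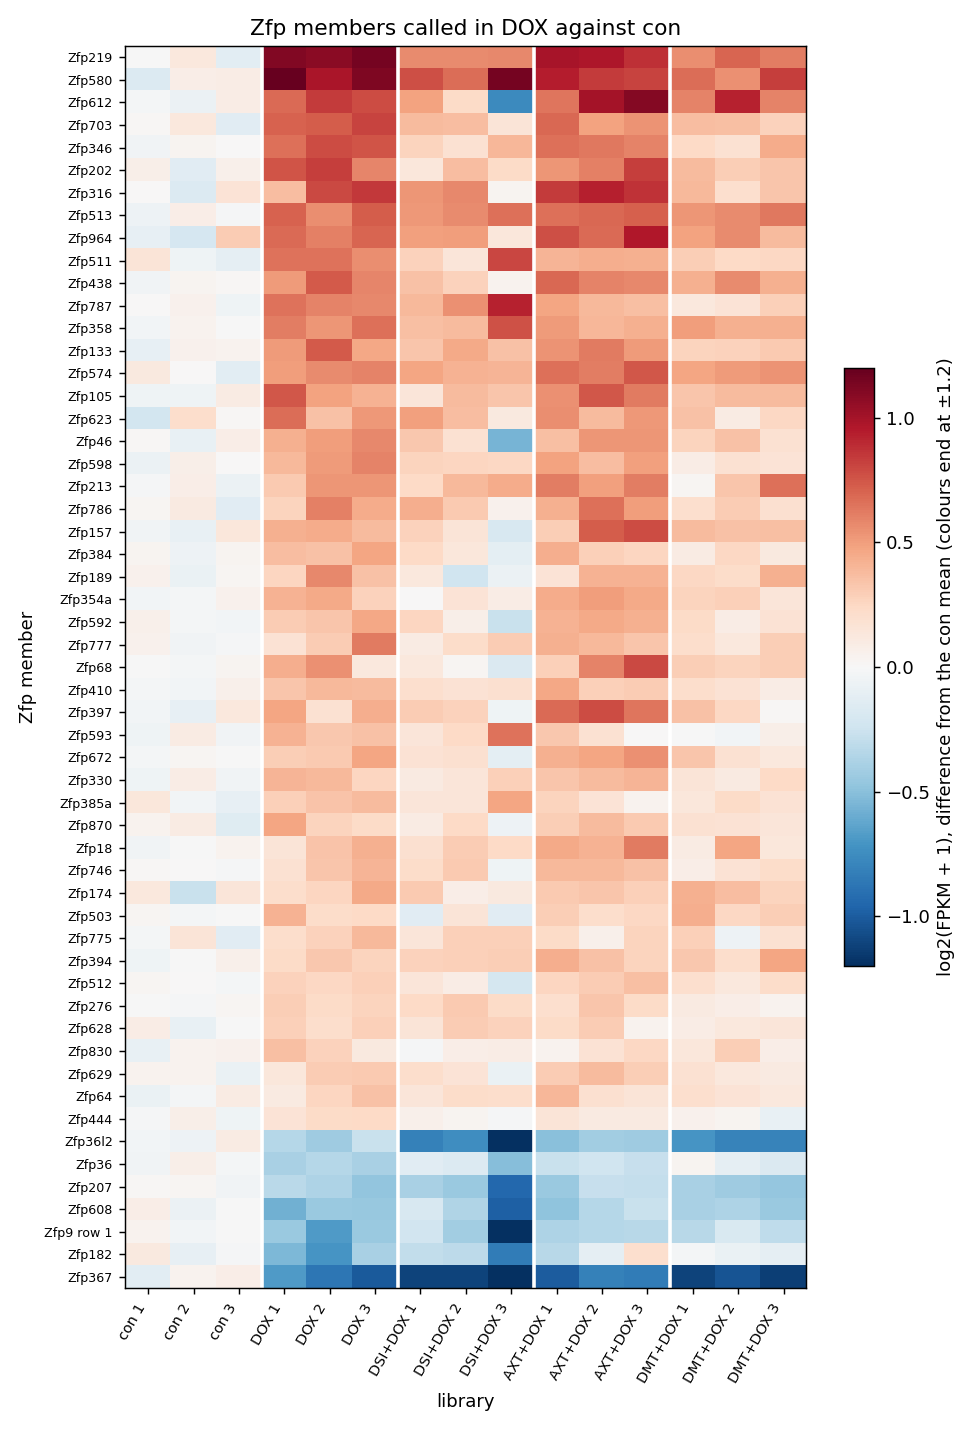
Each of the 55 members called in DOX against con (rows, ordered by that change) in each of the 15 libraries (columns), coloured by its difference from the con mean on the log2(FPKM + 1) scale, red for higher and blue for lower. The rows were chosen by the DOX against con test, so the contrast of those columns is a description; Zfp219 at the top differs by 1.12 and Zfp367 at the bottom by -0.85.

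The members were also read by role. The shares of all genes tested, 24.8% for rises and 14.1% for falls, apply to each of these lists too, most of which are too small for their counts to be read against a share. The CCCH group that binds mRNA gave 2 falls and no rise among 3 genes. The remaining gene, Zfp36l1, had 20.5, 19.9 and 19.9 FPKM in con and 23.0, 23.3 and 24.1 in DOX (log2 fold change 0.21 ± 0.12 (SE), limma adjusted p = 0.191); it was called higher without DSI+DOX replicate 3 (adjusted p = 0.00409). Zfp36l1 was at 13.4 FPKM in that library against 20.6 and 20.3 in the other DSI+DOX libraries. A list of 12 tested genes of mRNA turnover held mostly subunits of the CCR4-NOT deadenylase, with Elavl1 also among them. None was called by limma in the fit with all libraries, and 1 had an unadjusted p under 0.05. Without DSI+DOX replicate 3 there were 6 falls, in a fit where 23.8% of all genes tested fell.

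Among 11 members linked to DNA damage, p53 or topoisomerases, 3 rose and none fell, which is near the share of all genes for rises. Besides Zfp346 these were Zfp385a, a p53 target in mouse that favours arrest, from 13.8 ± 1.29 to 17.6 ± 0.638 FPKM (log2 fold change 0.34 ± 0.10 (SE), limma adjusted p = 0.0140), and Zfp830 (log2 fold change 0.25 ± 0.09 (SE), limma adjusted p = 0.0373). After median scaling Zfp385a (adjusted p = 0.116) and Zfp830 (0.156) were no longer called. The Zfp385a call was also lost without con replicate 3 (0.0657), and the Zfp830 call without any con library, DOX replicate 1 or 2, or AXT+DOX replicate 2 (0.0506 to 0.142). Zfp451, whose human counterpart is a SUMO ligase that helps remove trapped topoisomerase II, had 3.81, 3.85 and 4.56 FPKM in con and 4.95, 4.80 and 4.94 in DOX, with no overlap but no call (log2 fold change 0.22 ± 0.12 (SE), limma adjusted p = 0.152). It was called without DSI+DOX replicate 3 (adjusted p = 0.0434). Zfp365, a p53 target in human cells, had a log2 fold change of -0.12 (adjusted p = 0.621). The others were not called either: Zfp110 had a log2 fold change of 0.34, Zfp280c 0.17, Zfp335 0.05, Zfp668 0.01, Zfp148 -0.25 and Zfp161 -0.26. Of these, Zfp110 and Zfp161 were called without DSI+DOX replicate 3 (adjusted p = 0.0143 and 0.0119), and Zfp385b fell below the minimum for testing.

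Of 4 members listed under ribosome and translation, 3 rose and none fell. Zfp598 had 12.8, 14.3 and 13.7 FPKM in con and 18.1, 19.8 and 21.0 in DOX (log2 fold change 0.50 ± 0.07 (SE), limma adjusted p = 6.92e-05). Zfp330 went from 20.9 ± 1.19 to 26.99 ± 1.54 FPKM (log2 fold change 0.35 ± 0.07 (SE), limma adjusted p = 0.00133) and Zfp593, related to a yeast factor of large-subunit maturation, from 5.92 ± 0.428 to 7.90 ± 0.301 (log2 fold change 0.36 ± 0.12 (SE), limma adjusted p = 0.0294). After median scaling Zfp593 was not called (adjusted p = 0.154), nor without any DOX library or con replicate 1 or 3 (0.0547 to 0.0911). Zfp622, related to another yeast factor of the same process, had 17.4, 14.2 and 14.7 FPKM in con and 17.0, 13.7 and 16.5 in DOX, which overlapped (adjusted p = 0.853).

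Of 9 members with roles in muscle, heart or mesenchymal fate, 2 rose and none fell. They were Zfp703 and its family relative Zfp503 (log2 fold change 0.29 ± 0.09 (SE), limma adjusted p = 0.0260; after median scaling, adjusted p = 0.0768). The Zfp503 call was lost without any con library or DOX replicate 1 (0.0563 to 0.111). Zfp260, a mediator of alpha-adrenergic signalling in rat heart cells, had 7.76, 7.83 and 7.91 FPKM in con and 7.15, 7.14 and 6.38 in DOX and was not called (adjusted p = 0.380). Zfp106, whose loss causes neuromuscular degeneration in mouse, had 19.3, 17.3 and 20.7 FPKM in con and 11.6, 13.7 and 15.01 in DOX (log2 fold change -0.48 ± 0.26 (SE), limma adjusted p = 0.163). These groups did not overlap, and the call appeared without DSI+DOX replicate 3 (adjusted p = 0.00242), where Zfp106 was at 5.77 FPKM against 16.3 and 13.8. The log2 fold changes of the rest were 0.20 (Zfp418), 0.12 (Zfp697), 0.11 (Zfp422), -0.08 (Zfp521) and -0.16 (Zfp637), none of them called; Zfp637 was called lower without DSI+DOX replicate 3 (adjusted p = 0.0341). Zfp423 fell below the minimum. Of 4 members that bind RNA or act in splicing, Zfp346 rose, Zfp106 is described above, and Zfp326 (0.06) and Zfp638 (-0.14) were not called.

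Of 3 members of mitosis and cell cycle, Zfp367 and Zfp207 fell and Zfp318 did not pass (0.03, adjusted p = 0.914). Of 4 housekeeping regulators, Zfp410, which activates Chd4 in human and mouse cells, rose (log2 fold change 0.37 ± 0.07 (SE), limma adjusted p = 0.000778), as did Zfp384 (log2 fold change 0.40 ± 0.09 (SE), limma adjusted p = 0.00403). Zfp143, the activator of small nuclear RNA genes, had a log2 fold change of 0.10 (adjusted p = 0.501) and Zfp91 one of -0.22 (0.321, and 0.0200 without DSI+DOX replicate 3). Zfp592, of a chromatin complex with Zfp687 and Zmynd8 in human cells, rose (log2 fold change 0.37 ± 0.11 (SE), limma adjusted p = 0.0160; lost without con replicate 3 or DOX replicate 3, 0.0538 to 0.0630), and Zfp532 of the same complex did not pass (0.16, adjusted p = 0.447). Zfp687 was not analysed here. None of 7 members tied to pluripotency or chromatin was called in the limma fit, and none had an unadjusted p under 0.05. Their log2 fold changes were -0.29 (Zfp292), -0.27 (Zfp281), -0.24 (Zfp516), -0.14 (Zfp644), -0.08 (Zfp57), 0.07 (Zfp217) and 0.19 (Zfp462).

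A list of 21 tested genes held Trim28, Setdb1 and other genes of repressive chromatin and DNA methylation, not all of them parts of the KRAB corepressor complex. Of these 21, 8 fell and 1 rose in DOX against con, where 14.1% of all genes tested fell and 24.8% rose. Without DSI+DOX replicate 3 there were 10 falls and 1 rise, against 23.8% and 33.2%; Ehmt1 (adjusted p = 0.00487) and Cbx1 (0.00284) were called then and not with all libraries (0.0984 and 0.0812). Uhrf1, which directs DNA methylation to new strands, went from 16.8 ± 0.302 to 6.33 ± 0.679 FPKM (log2 fold change -1.28 ± 0.11), Dnmt1, the maintenance methyltransferase, from 11.9 ± 0.0956 to 6.42 ± 0.452 (-0.80), and Cbx3, a heterochromatin protein, from 88.4 ± 3.30 to 54.2 ± 6.51 (-0.70). Trim28 itself had 91.7 ± 2.81 FPKM in con and 89.7 ± 4.71 in DOX (limma adjusted p = 0.669), and its partner Setdb1 7.23 ± 0.178 and 8.23 ± 0.409 (adjusted p = 0.291). With danshen injection Mta1 (-0.26) and Mta2 (-0.29) fell against DOX, and without DSI+DOX replicate 3 their changes were -0.21 (adjusted p = 0.0454) and -0.19 (0.0228). With diosmetin Mta1 (-0.29) and Trim28 (-0.24) fell, and without that library Mta2 (adjusted p = 0.00148) and Hdac1 (0.0499) were also called. With astaxanthin no gene of this list was called by limma, with or without that library. In the fit with all libraries 1 gene of the list had an unadjusted p under 0.05. Among genes taken by the symbols Znf or Zbtb with a number, 3 of 5 Znf-named genes rose and none fell. Of 37 Zbtb-named genes, which include Zbtb8os by its symbol alone, 5 rose and 1 fell, fewer than the share of all genes in each direction. Without DSI+DOX replicate 3 the Znf-named counts were 3 and none, and the Zbtb-named counts 10 and 2.

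Promoters were read from RefSeq for the members that moved most. Of the 189 members, 184 matched RefSeq by symbol and 2 by synonym, and 139 had a promoter in the table, which spans 250 bases before to 50 after the transcript start. Zfp219 and Zfp703 were among those with none. The sequences of Zfp580 and Zfp346, which rose, and Zfp367, which fell, are printed to let their motif content be compared. Positions are on GRCr8, whereas the submitters' processing notes name Rnor_6.0 for the expression values. They are chr1:77818078-77818377 on the minus strand, chr17:9528734-9529033 on the minus strand and chr17:970646-970945 on the plus strand. Capitals mark matches on either strand to AP-1 (TGANTCA), CRE (TGACGTCA), CARE (TGATGNAA), ARE (TGACNNNGC), E2F (GCGGGAA), the p53 half-site or the CArG box. The common NF-Y (CCAAT) and Sp1 (GGGCGG) letters were counted but not capitalised.
Zfp580: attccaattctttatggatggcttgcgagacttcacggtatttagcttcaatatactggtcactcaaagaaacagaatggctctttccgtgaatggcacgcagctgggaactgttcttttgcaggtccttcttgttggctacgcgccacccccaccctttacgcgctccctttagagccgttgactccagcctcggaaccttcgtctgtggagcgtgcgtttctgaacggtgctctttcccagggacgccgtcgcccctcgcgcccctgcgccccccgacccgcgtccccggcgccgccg
Zfp346: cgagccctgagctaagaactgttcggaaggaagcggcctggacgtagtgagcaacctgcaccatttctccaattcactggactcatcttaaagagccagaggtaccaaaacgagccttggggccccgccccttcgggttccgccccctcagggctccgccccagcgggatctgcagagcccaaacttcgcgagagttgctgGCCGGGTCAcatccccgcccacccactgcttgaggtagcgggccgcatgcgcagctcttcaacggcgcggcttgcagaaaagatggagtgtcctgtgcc
Zfp367: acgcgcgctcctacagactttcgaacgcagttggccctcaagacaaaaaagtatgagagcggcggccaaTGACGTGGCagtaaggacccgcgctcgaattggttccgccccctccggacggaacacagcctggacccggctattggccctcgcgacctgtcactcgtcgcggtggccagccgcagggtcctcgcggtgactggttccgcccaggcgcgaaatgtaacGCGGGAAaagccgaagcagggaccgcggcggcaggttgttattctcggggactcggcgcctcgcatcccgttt

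The Zfp580 promoter held no match to the capitalised motifs. That of Zfp346 held 1 ARE match, which began 49 bases before the start. That of Zfp367 held an ARE match at 181 bases, whose first letter also belongs to an NF-Y match, and an E2F match at 23 bases before the start. Over the 138 member symbols with a promoter, 12 (8.70%) held the E2F letters, against 4.21% of 33469 RefSeq promoters of the same length. They stood in 5 of 36 promoters of members that rose and in 1 of 5 of those that fell. The ARE letters stood in 10.1% of member promoters and 12.1% of all, and the p53 half-site in 8.70% and 7.98%. For the rest the shares of member and of all promoters were 7.25% and 7.33% for AP-1, 2.17% and 1.83% for CRE, 0.725% and 3.98% for CARE, 1.45% and 1.64% for the CArG box, 41.3% and 37.5% for NF-Y and 48.6% and 33.1% for Sp1. Member promoters were richer in G and C, with a median of 58.67% against 51.67%. E2F letters are mostly G and C, and no correction for composition was made. A match describes the letters and is not evidence of binding.

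Zfp genes often lie in clusters. On the RefSeq annotation 186 members lay on 21 chromosomes, with 41 on chromosome 1, 17 on chromosome 10 and 16 on chromosome 4. Another member was the next gene for 36 of them, in 14 runs of up to 5 genes. Of these 36, 9 rose and none fell in DOX against con, and of the other 150, 39 rose and 7 fell. Both shares of rises are near the 24.8% of all genes tested. Zfp444 (0.21) and Zfp787 (0.61) rose as neighbours, as did Zfp777 (0.37) and Zfp746 (0.31). The Zfp444 call was lost without con replicate 1 or 3 or DOX replicate 2 or 3 (adjusted p from 0.0663 to 0.0946), that of Zfp777 without DOX replicate 3 (0.0502) and that of Zfp746 without con replicate 3 or DOX replicate 2 or 3 (0.0561 to 0.0736). Zfp580 rose by 1.10 on the log2 scale while its neighbour Zfp865 had 0.04 (adjusted p = 0.809). In the run of 5 on chromosome 4, Zfp786 rose (0.44) and Zfp398, Zfp282, Zfp212 and Zfp956 were not called. Reads shared between near-identical copies cannot be told apart in these values.

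Each addition was then compared with DOX to see what it altered in the presence of the drug. These comparisons share the DOX libraries with the comparison against con, and the values of each are given side by side.

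With danshen injection 11 members fell and none rose against DOX, or 5.82% of members against 6.41% of all genes tested for falls and 1.47% for rises. The median log2 fold change was -0.20 for members and -0.11 for all genes. Median scaling moved the median of all genes from -0.11 to 0.04, and that of the members to -0.05. When DSI+DOX replicate 3 was left out, 15 members fell and 1 rose, with 9.09% of all genes lower and 2.69% higher, and the members' median was -0.08. Zfp36 was the rise (0.23, adjusted p = 0.0291). Leaving out DSI+DOX replicate 1 gave 44 calls, DOX replicate 2 gave 4, and con replicate 1 or AXT+DOX replicate 2 gave 7. With only the DSI+DOX and DOX libraries in the limma fit no member and 1 of all genes was called. In that fit 23 of 189 members and 1270 of 11288 genes had an unadjusted p under 0.05.

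Zfp36l2 and Zfp219 were the members that fell in the fit of all libraries and after median scaling. Zfp36l2 had 15.8, 16.6 and 10.8 FPKM in DSI+DOX replicates 1 to 3 against 20.9 to 23.4 in DOX (log2 fold change -0.61 ± 0.12 (SE), limma adjusted p = 0.00789). It was lowest in replicate 3, and without that library its change was -0.43 (adjusted p = 0.000799). Zfp219 had 11.3, 11.3 and 11.4 FPKM in libraries that lay close together, below the DOX range of 16.7 to 17.5 (log2 fold change -0.55 ± 0.07 (SE), limma adjusted p = 0.000755; -0.55 and 0.000366 without replicate 3). After median scaling the adjusted p was 0.00993 for Zfp36l2 and 0.0258 for Zfp219.

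Zfp346 had 5.22, 4.87 and 5.79 FPKM in DSI+DOX (log2 fold change -0.45 ± 0.09 (SE), limma adjusted p = 0.00661; without replicate 3, -0.50 and 0.00129). Zfp703 had 7.16, 7.14 and 6.00 (log2 fold change -0.45 ± 0.09 (SE), limma adjusted p = 0.0106; without replicate 3, -0.38 and 0.0117). Zfp202 had 1.12, 1.503 and 1.26 (log2 fold change -0.48 ± 0.10 (SE), limma adjusted p = 0.0141; without replicate 3, -0.47 and 0.0182). All were between their con and DOX means, and after median scaling none of these genes was called (adjusted p = 0.137, 0.0627 and 0.110). With DOX replicate 2 left out, Zfp202 was no longer called (adjusted p = 0.0722).

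Zfp62 showed the largest estimate, -0.64 ± 0.18 (limma adjusted p = 0.0456), from 4.72, 5.16 and 5.41 FPKM in DOX to 3.57, 3.84 and 1.73. Replicate 3 was the lowest, and without it the change was -0.37 (adjusted p = 0.0423). Zfp280d went from 8.23, 7.88 and 7.82 to 6.29, 5.67 and 3.67 FPKM (log2 fold change -0.56 ± 0.15 (SE), limma adjusted p = 0.0353; without replicate 3, -0.36 and 0.0373). Zfp189 went from 3.42, 4.49 and 3.70 to 3.01, 2.12 and 2.51 FPKM (log2 fold change -0.46 ± 0.12 (SE), limma adjusted p = 0.0308; without replicate 3, -0.45 and 0.0318). Leaving out a single library ended these calls: for Zfp62, 11 of the 15 (adjusted p up to 0.130, without DOX replicate 2); for Zfp280d, 7 (up to 0.0996, without DOX replicate 2); and for Zfp189, DOX replicate 2 (0.134), DOX replicate 3 (0.0628) or DSI+DOX replicate 2 (0.0761). The other falls were Zfp438 (-0.39), Zfp354a (-0.30) and Zfp598 (-0.24), the last with an adjusted p of 0.0498. Without DSI+DOX replicate 3 they were -0.30 (adjusted p = 0.0456), -0.30 (0.0351) and -0.24 (0.0419). Their calls were lost without 2 of the 15 libraries for Zfp438 (DOX replicates 2 and 3, up to 0.107), 9 for Zfp354a (up to 0.136) and 12 for Zfp598 (up to 0.150).

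With diosmetin 9 members fell and none rose against DOX, or 4.76% of members against 7.53% of all genes for falls and 2.93% for rises. The median log2 fold change was -0.05 for members and -0.04 for all genes. DSI+DOX replicate 3 belongs to neither side of this comparison but enters the shared spread, and when it was left out 23 fell and 7 rose, where 17.2% of all genes fell and 7.83% rose. After median scaling 5 fell and 4 rose, with a median log2 fold change of 0.015 for all genes and 0.012 for the members. The share of all genes called under that scaling is not given here. Leaving out DOX replicate 2 or any 1 of the DMT+DOX libraries gave 4 calls, and leaving out DOX replicate 1 gave 5.

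Zfp219 had the largest fall, at 11.2, 12.6 and 11.8 FPKM in DMT+DOX (log2 fold change -0.49 ± 0.07 (SE), limma adjusted p = 0.000861). Zfp346 had 5.10, 4.84 and 6.02 (log2 fold change -0.44 ± 0.09 (SE), limma adjusted p = 0.00459) and Zfp703 7.13, 7.08 and 6.63 (log2 fold change -0.41 ± 0.09 (SE), limma adjusted p = 0.0115). For each gene every DMT+DOX library lay below every DOX library and above every con library. The Zfp703 call was lost without DMT+DOX replicate 3 (adjusted p = 0.0502), and the Zfp346 call after quantile normalization (0.0508). Zfp598 had 14.5, 15.6 and 15.4 FPKM (log2 fold change -0.35 ± 0.07 (SE), limma adjusted p = 0.00527), and Zfp219, Zfp346 and Zfp598 were called without each of the 15 libraries in turn.

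Zfp36l2 had 17.0, 15.9 and 15.9 FPKM in DMT+DOX (log2 fold change -0.42 ± 0.12 (SE), limma adjusted p = 0.0382), lower than in DOX and con alike. Its call was lost without any 1 of the 12 libraries outside the DSI+DOX group (adjusted p up to 0.127, without DOX replicate 3). The adjusted p was 0.000147 without DSI+DOX replicate 3, where Zfp36l2 was lowest. Zfp580 had 8.63, 7.82 and 9.72 FPKM (log2 fold change -0.42 ± 0.12 (SE), limma adjusted p = 0.0461), and Zfp787 had 5.13, 5.29 and 5.86 against 7.79, 7.46 and 7.37 in DOX (log2 fold change -0.41 ± 0.11 (SE), limma adjusted p = 0.0311). The Zfp580 call was lost without 11 of the 15 libraries (adjusted p up to 0.182, without DMT+DOX replicate 2). The Zfp787 call was lost without any DOX library or DMT+DOX replicate 1 or 2 (adjusted p from 0.0723 to 0.120). Neither was called after median scaling (adjusted p = 0.205 and 0.187). Zfp202 (-0.39) and Zfp133 (-0.28, adjusted p = 0.0477) were the other falls. The Zfp202 call was lost without any DMT+DOX library or DOX replicate 1 or 2 (0.0689 to 0.122), and the Zfp133 call without 13 of the 15 libraries (up to 0.208).

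Zfp36 and Zfp182, which fell with doxorubicin, had higher means with diosmetin. Zfp36 had 28.0, 25.4 and 24.3 FPKM against 20.7, 21.4 and 20.6 in DOX, with no overlap (log2 fold change 0.29 ± 0.09 (SE), limma adjusted p = 0.0593; 0.00151 without DSI+DOX replicate 3 and 0.00632 after median scaling). Zfp182 had 3.24, 3.08 and 2.995 FPKM against 1.97, 1.64 and 2.29 (log2 fold change 0.47 ± 0.16 (SE), limma adjusted p = 0.0750; 0.00947 and 0.0182). These genes were chosen for display after their values were seen.

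With astaxanthin no member was called against DOX in the limma fit, where 0.62% of all genes fell and 0.0709% rose. At an unadjusted p under 0.05 there were 12 of 189 members and 886 of 11288 genes tested. The median log2 fold change was 0.08 for members and 0.003 for all genes. In the fit without DSI+DOX replicate 3, 4 members rose and none fell, with 0.974% of all genes higher and 2.32% lower. They were Zfp182 (0.47, adjusted p = 0.0483), Zfp322a (0.43, 0.0237), Zfp386 (0.40, 0.0480) and Zfp949 (0.35, 0.0448). Zfp182 had 2.42, 2.998 and 3.96 FPKM in AXT+DOX. Zfp219 had 15.6, 15.3 and 14.3 FPKM (log2 fold change -0.17 ± 0.07 (SE), limma adjusted p = 0.583), below every DOX library without passing the test, and Zfp346 had 7.18, 6.99 and 6.77 (log2 fold change -0.10 ± 0.09 (SE), limma adjusted p = 0.948), which overlapped DOX.

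**Figure D4:**
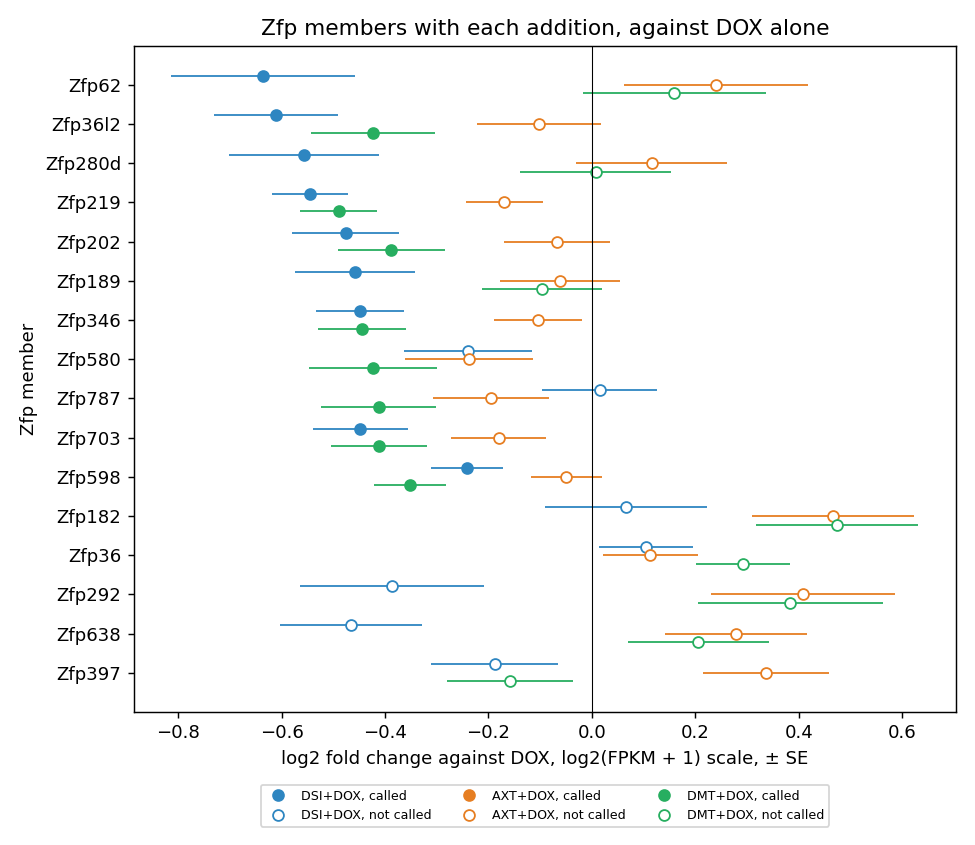
Log2 fold change (± SE) of 16 Zfp members with each addition against DOX, on the log2(FPKM + 1) scale; filled points passed the limma test and open points did not, and all contrasts share the DOX libraries. For Zfp219 the danshen and diosmetin points lie at -0.55 and -0.49 and the astaxanthin point at -0.17.

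The groups with an addition were also set against con, and share its libraries. With danshen injection 20 members rose and 29 fell (10.6% and 15.3% of members), against 20.5% and 21.3% of all genes. Without DSI+DOX replicate 3, 22 rose and 12 fell (11.6% and 6.35% of members), against 21.6% and 19.0% of all genes. With astaxanthin 51 rose and 5 fell, against 22.7% and 12.8% of all genes, and without that library 75 rose and 9 fell, against 32.3% and 21.2%. With diosmetin 20 rose and 6 fell (10.6% and 3.17% of members), against 15.5% and 10.7% of all genes. Without that library 36 rose and 15 fell (19.0% and 7.94% of members), against 24.3% and 20.8%. With each library left out in turn the counts ran from 20 to 89 for danshen injection, 38 to 84 for astaxanthin and 14 to 51 for diosmetin, the highest without DSI+DOX replicate 1 for the first and replicate 3 for the others.

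The additions were last compared with each other, which uses neither con nor DOX in the difference. With danshen injection 34 members were lower and none higher than with astaxanthin, or 18.0% of members against 7.99% of all genes lower and 2.5% higher. Without DSI+DOX replicate 3, 32 were lower and none higher, against 8.52% and 3.16% of all genes. With only the DSI+DOX and AXT+DOX libraries in the limma fit, no member and no other gene was called. In that fit 43 of 189 members and 1493 of 11288 genes had an unadjusted p under 0.05. The count fell to 9 after median scaling and to 14 after quantile normalization. It was 3 without AXT+DOX replicate 2, 6 without AXT+DOX replicate 3 and 103 without DSI+DOX replicate 1. The shares of all genes called under these settings are not given here. Zfp612 had 3.25, 2.57 and 0.791 FPKM in DSI+DOX and 3.73, 5.05 and 5.53 in AXT+DOX (log2 fold change -0.93 ± 0.24 (SE), limma adjusted p = 0.0307; without DSI+DOX replicate 3, -0.55 and 0.0199). Zfp62 had 3.57, 3.84 and 1.73 in DSI+DOX and 5.05, 6.45 and 7.26 in AXT+DOX (log2 fold change -0.88 ± 0.18 (SE), limma adjusted p = 0.0115; -0.61 and 0.00411). Zfp292, a large C2H2 gene, had 2.25, 1.95 and 1.00 in DSI+DOX and 2.66, 3.82 and 4.68 in AXT+DOX (log2 fold change -0.79 ± 0.18 (SE), limma adjusted p = 0.0171; -0.58 and 0.0215). In each the groups did not overlap, with DSI+DOX replicate 3 lowest of the DSI+DOX libraries and AXT+DOX replicate 1 lowest of the AXT+DOX libraries. All 3 calls were lost without AXT+DOX replicate 2 or 3, with adjusted p from 0.108 to 0.131 for Zfp612, 0.0525 to 0.0645 for Zfp62 and 0.0689 to 0.0904 for Zfp292.

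Against diosmetin, danshen injection gave 6 lower members and none higher, where 1.34% of all genes were lower and 0.345% higher. There were 3 when DSI+DOX replicate 3 was left out, against 1.92% of all genes lower and 0.718% higher. With only these 2 groups in the limma fit no gene was called, and 20 of 189 members and 917 of 11288 genes had an unadjusted p under 0.05. The count depended on single libraries, from 0 without any 1 DMT+DOX library or con replicate 1 or 2 to 38 without DSI+DOX replicate 1. Zfp638, which takes part in splicing, had 5.43, 5.42 and 3.76 FPKM in DSI+DOX and 8.34, 8.49 and 7.98 in DMT+DOX (log2 fold change -0.67 ± 0.14 (SE), limma adjusted p = 0.0310; without replicate 3, -0.53 and 0.0283). Zfp62 (log2 fold change -0.80 ± 0.18 (SE), limma adjusted p = 0.0434; without replicate 3, -0.53 and 0.0195) and Zfp292 (log2 fold change -0.77 ± 0.18 (SE), limma adjusted p = 0.0486; -0.56 and 0.0577) were lower too. The Zfp638 call was lost without any DMT+DOX library or con replicate 1 or 2 (0.0502 to 0.132), the Zfp62 call without 11 of the 15 libraries (up to 0.178) and the Zfp292 call without 12 (up to 0.213).

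Astaxanthin gave 4 higher members and none lower than diosmetin, where 2.58% of all genes were higher and 2.12% lower. Zfp219 had 15.6, 15.3 and 14.3 FPKM in AXT+DOX and 11.2, 12.6 and 11.8 in DMT+DOX (log2 fold change 0.32 ± 0.07 (SE), limma adjusted p = 0.0242). Zfp346 had 7.18, 6.99 and 6.77 in AXT+DOX and 5.10, 4.84 and 6.02 in DMT+DOX (log2 fold change 0.34 ± 0.09 (SE), limma adjusted p = 0.0367), and Zfp397 had 3.36, 3.69 and 3.26 in AXT+DOX and 2.49, 2.23 and 1.76 in DMT+DOX (log2 fold change 0.50 ± 0.12 (SE), limma adjusted p = 0.0332). Zfp598 was the fourth (log2 fold change 0.30 ± 0.07 (SE), limma adjusted p = 0.0230). After median scaling Zfp219 (adjusted p = 0.155) and Zfp346 (0.244) were not called, and Zfp397 was (0.0339). The calls were lost without AXT+DOX replicate 1 or 2 or DMT+DOX replicate 1 or 3 for Zfp219 (0.0894 to 0.117), 9 of the 15 libraries for Zfp346 (up to 0.171), 6 for Zfp397 (up to 0.153) and 5 for Zfp598 (up to 0.111). Leaving out AXT+DOX replicate 1 gave no call, and leaving out DSI+DOX replicate 3 gave 21 higher and 1 lower, against 10.4% and 5.48% of all genes. The doses of the additions differ and were given singly, so these are differences between treatments as applied.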

How the data were processed

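Per the labels' protocols, TRIzol was used for extraction and the NEBNext Ultra RNA kit for library preparation. The authors' deposited table gives 1 FPKM value per gene and library, per the file headers. The submitters' processing notes name Trimmomatic, HISAT2, featureCounts and Rnor_6.0 without versions. How counts became FPKM, and any scaling between libraries, is not given in the sources used here. Depth cannot be read from FPKM, and no counting interval was computed.

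From these values 16 exact duplicates among 19344 entries were removed, which left 19328. The limma package (3.58.1, under R 4.3.3) was used to fit 1 mean for each group to log2(FPKM + 1), over the 15 libraries together, with an intensity trend and 10 residual degrees of freedom, for the 11288 genes with 1 FPKM or more in at least 3 libraries. The pseudocount understates changes of low genes. Tests were two-sided, adjusted by Benjamini-Hochberg over all tested genes, and called under 0.05. Exact permutation of 3 against 3 libraries cannot go below 0.10 and was not used. Other settings tried were a 0.1 pseudocount, a minimum of 5 FPKM or no minimum, quantile normalization or median scaling, a fit restricted to the compared groups, a fit without the trend, a block for the replicate number, and leaving out each library. Median scaling together with leaving out DSI+DOX replicate 3 was added after the data were seen.

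The members, the lists by role and the rule for naming genes were chosen with earlier results of these data known. The named members were, in each main comparison, up to 6 called members of largest increase and 6 of largest decrease whose groups did not overlap and whose higher group averaged 2 FPKM or more, the 3 largest changes between additions, the 5 members of highest mean, and all members of the lists by role. Promoters come from RefSeq (GRCr8). Protein sequences were not analysed here. Plots were made in Python 3.11.15 with matplotlib 3.10.9.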

Additional observations from a re-analysis of the deposited data

Results flagged for a closer look

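The addition groups share the doxorubicin treatment, and 11 named members differed between danshen injection and astaxanthin in the limma test of that difference. DSI+DOX was lower for Zfp612 (log2 difference -0.927), Zfp62 (-0.875), Zfp292 (-0.794), Zfp638 (-0.744), Zfp280d (-0.672), Zfp397 (-0.526), Zfp36l2 (-0.51), Zfp202 (-0.408), Zfp189 (-0.396), Zfp219 (-0.376) and Zfp346 (-0.345). For each of them all 3 DSI+DOX libraries lay below all 3 AXT+DOX libraries. DSI+DOX replicate 3 was not the lowest DSI+DOX library for every gene: Zfp219, Zfp346, Zfp202 and Zfp189 were higher there than in at least 1 other. Without that library 10 of the 11 were called, and Zfp189 was not (adjusted p = 0.0587). With only the 2 groups in the limma fit none of the 11 was called. After median scaling or quantile normalization 6 were, without AXT+DOX replicate 2 only Zfp638 was, and without AXT+DOX replicate 3 Zfp638 and Zfp219 were.

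Zfp62 (-0.795), Zfp292 (-0.77) and Zfp638 (-0.672) differed in the same way between danshen injection and diosmetin. Without DSI+DOX replicate 3 the adjusted p was 0.0195 for Zfp62, 0.0577 for Zfp292 and 0.0283 for Zfp638. None of the 3 was called with only the 2 groups in the fit, with no filter, with the replicate block, or without any 1 DMT+DOX library or con replicate 1 or 2.

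Astaxanthin was higher than diosmetin for Zfp397 (0.496), Zfp346 (0.34) and Zfp219 (0.32). The AXT+DOX and DMT+DOX libraries of these genes did not overlap. All 3 were called with only the 2 groups in the fit, 1 was after median scaling (Zfp397), and none was without AXT+DOX replicate 1 or 2.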

How the results depend on the processing

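The rises and falls named by size in the comparisons of DOX with con and of additions with DOX made 24 results. Of these 24, 8 were called under every alternative in which they were tested, and none changed direction. They were picked for size and lack of overlap in these same libraries, so a change of direction was unlikely from the start. Results between additions and those named only by role are not among the 24. At a minimum of 5 FPKM 17 of the 24 were tested, among them 6 of those 8. The number of called members, however, moved with the settings. Leaving out each library in turn gave 36 to 77 members for DOX against con (55 with all libraries), 4 to 44 for DSI+DOX against DOX (11), 0 to 4 for AXT+DOX against DOX (0) and 4 to 30 for DMT+DOX against DOX (9). Against con it gave 20 to 89 for DSI+DOX (49), 38 to 84 for AXT+DOX (56) and 14 to 51 for DMT+DOX (26). Between additions it gave 3 to 103 for DSI+DOX against AXT+DOX (34), 0 to 38 for DSI+DOX against DMT+DOX (6) and 0 to 22 for AXT+DOX against DMT+DOX (4). Fits restricted to the compared groups have a spread from fewer libraries. For these fits the count among all 11288 genes follows in brackets. They gave 83 members (6316 genes) for DOX against con, 0 (1) for DSI+DOX against DOX and 23 (2252) for DMT+DOX against DOX. Against con they gave 9 (1613) for DSI+DOX and 53 (5376) for DMT+DOX. The same setting gave 0 (0) for DSI+DOX against either other addition and 14 (1222) for AXT+DOX against DMT+DOX. Median scaling gave 2 for DSI+DOX against DOX and 9 for DSI+DOX against AXT+DOX, and quantile normalization 5 and 14. Median scaling without DSI+DOX replicate 3 gave 4 for AXT+DOX against DOX, 28 for DMT+DOX against DOX, 51 for DMT+DOX against con, 13 for DSI+DOX against AXT+DOX and 10 for AXT+DOX against DMT+DOX. The filter at 5 FPKM, which tests fewer members, gave 34 for AXT+DOX against con, 14 for DMT+DOX against con and 18 for DSI+DOX against AXT+DOX. No filter gave 27 for DSI+DOX against con and 0 for DSI+DOX against DMT+DOX, and a pseudocount of 0.1 gave 3 for the latter. These settings act on all genes, whose shares are mostly not given here, so the counts are not read as particular to the members. Beyond the construction of each setting, the cause was not tested.

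Libraries with the same replicate number did not, by their median, deviate together more than those with different numbers. Over 30 pairs of the same number the correlation of deviations ran from -0.536 to 0.517, with a median of -0.018 and 8 over 0.1. Over 60 pairs of different number it ran from -0.495 to 0.558, with a median of 0.045 and 25 over 0.1. Whether single pairs shared a day or culture was not tested. With the replicate number as a block the counts were 49 for DOX against con, 6 for DSI+DOX against DOX, 5 for DMT+DOX against DOX, 20 for DSI+DOX against AXT+DOX, 0 for DSI+DOX against DMT+DOX and 2 for AXT+DOX against DMT+DOX. The read depth is unknown, so tests of members near 1 FPKM rest on the spread estimated over all 15 libraries, without a counting interval.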
